A study of Mus musculus with 4 samples.

Results

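Ribosome biogenesis is the making of new ribosomes, and 35 mouse genes that serve it are described here in single cells of the heart. They were taken by gene symbol from the deposited count tables, each symbol had 1 row, and they are 35 of the 32285 genes listed. They comprise 1 transcription factor (Myc), 2 subunits of RNA polymerase I, 7 proteins of small nucleolar ribonucleoproteins (snoRNPs), 5 nucleolar chaperones or helicases, 8 assembly factors of the small ribosomal subunit and 12 of the large subunit. The list was drawn up with earlier results of these libraries known, so every value of its members is a description and no value is a test.

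Hearts of mice were dissociated and profiled by droplet single-cell RNA sequencing (10x Chromium 3' v3) in 4 libraries, each of them a group of its own (control, sham, CLP, and CLP with stimulation). CLP is cecal ligation and puncture, an operation on the gut that leads to sepsis, and the stimulation is low-level tragus stimulation, an electrical treatment of the outer ear near a branch of the vagus nerve. The series title links this stimulation to the heart dysfunction of sepsis and to M2 macrophages. No genetic alteration is named for any group, and the sources used here do not give strain, age, the number of animals behind a library, the time after surgery or what was done to control and sham animals. Each group is a single library, so there is no replicate check of any difference and no p-value. Intervals are exact 95% intervals for counting error alone and leave the variation between animals unmeasured. Values of the libraries are given in the order control, sham, CLP and stimulated CLP, and stimulated means CLP with stimulation throughout.

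In the nucleolus RNA polymerase I transcribes the ribosomal RNA precursor, snoRNPs modify and help to cleave it, and assembly factors fold it with ribosomal proteins into the 2 subunits, leaving before the subunits enter translation. Cells that grow, divide or turn on secretion raise this programme, and the transcription factor Myc is known for driving many of its genes through the E-box sequence CACGTG. In resting heart tissue most cells divide little, while macrophages, endothelial cells and fibroblasts can resume growth after injury.

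Since the E-box is a feature that the choice of genes did not use, it was looked up in the start regions of the members. RefSeq promoters (GRCm38.p6), from 250 bases before to 50 bases after a gene's start, were at hand for 29 of the 35 members. CACGTG, a palindrome that reads alike on both strands, occurred in 5 of these 29 genes (17.2%), against 8.09% of 27025 genes with a promoter entry and 21.8% of 101 other ribosome biogenesis genes. The 5 are Mybbp1a, Nop2, Pes1, Utp20 and Wdr43, and their start regions, from 70 bases before the start, follow in lower case, 5′ to 3′ on the gene's strand, with the E-box in capitals. They are shown because they are the only members in which the letters that Myc is known to bind were found in this window.
Mybbp1a, chr11:72441257-72441376, plus strand: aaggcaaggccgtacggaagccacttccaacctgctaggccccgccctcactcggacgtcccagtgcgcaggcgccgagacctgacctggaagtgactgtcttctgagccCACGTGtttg
Nop2, chr6:125131813-125131932, plus strand: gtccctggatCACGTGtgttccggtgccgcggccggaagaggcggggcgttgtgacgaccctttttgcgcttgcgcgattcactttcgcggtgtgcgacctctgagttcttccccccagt
Pes1, chr11:3963905-3964024, plus strand: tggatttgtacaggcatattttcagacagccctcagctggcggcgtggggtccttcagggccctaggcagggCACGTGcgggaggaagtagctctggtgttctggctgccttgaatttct
Utp20, chr10:88826765-88826884, minus strand: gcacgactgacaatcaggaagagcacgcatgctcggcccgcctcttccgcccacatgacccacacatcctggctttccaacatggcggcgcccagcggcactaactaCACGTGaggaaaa
Wdr43, chr17:71616145-71616264, plus strand: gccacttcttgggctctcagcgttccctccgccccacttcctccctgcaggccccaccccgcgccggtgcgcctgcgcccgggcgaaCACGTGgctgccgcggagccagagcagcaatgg
The motif began 60 bases before the start in Nop2 and 2, 17, 37 and 40 bases after it in Pes1, Wdr43, Utp20 and Mybbp1a. A match is a run of letters and not evidence of binding. In CLP over sham the median log2 ratio of the 5 genes with an E-box, against the other 24, was 1.06 against 0.91 in macrophage-like, -0.53 against -0.62 in endothelial-like and 0.41 against 0.24 in fibroblast-like cells. In CLP plus stimulation over CLP it was -0.32 against -0.48, 1.26 against 1.67 and 0.93 against 0.81 in these classes, so that neither set was the higher one throughout.

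The libraries held 8741 to 15964 cell barcodes, of which 37616 of 43074 in all were kept, with a median of 2996 UMIs per cell in control and 5010.5 to 5491 in the other 3. Libraries shared 19 to 60 barcodes with each other, at most 0.69% of a library. Cells were assigned to a class when at least 3 of its 8 marker genes were detected and at least 2 more than of any other class, which placed 67.6% of cells in the stimulated library and 79.9% to 86.6% in the other libraries. A class cut in this way is a range and not a type, and 3.70% to 23.1% of its cells lay at the edge of the gate in macrophage-, endothelial- and fibroblast-like cells. All 8 defining markers were detected in each of these 3 classes in every library, summing to 9736 to 20003 CPM (UMIs per 1000000 UMIs of the class), 6329 to 6897 CPM and 17579 to 25489 CPM, respectively. In macrophage-like cells they summed to 17655, 20003, 12904.5 and 9736 CPM in the 4 libraries, lower in both CLP libraries. The share of these cells at the edge of the gate was 9.03%, 6.35%, 14.3% and 22.3%. The part of the lower marker level in the results was not tested. There were 4040, 3133, 1603 and 2905 macrophage-like cells in the 4 libraries. Endothelial-like cells numbered 2936, 1492, 1804 and 462, and fibroblast-like cells 3166, 1647, 1942 and 1177.

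All 35 genes were detected in each of these 3 classes in all 4 libraries. In macrophage-like cells the summed level of the 35 genes was 2722, 2391, 3462 and 2734 CPM. Endothelial-like cells held 1939, 1887, 1356 and 3436 CPM, and fibroblast-like cells 2881, 2533, 2843 and 5099 CPM. CLP was thus the highest library in macrophage-like cells and the lowest in endothelial-like cells, and CLP plus stimulation was the highest in endothelial-like and fibroblast-like cells. Counting intervals of the libraries did not overlap in these classes, with 3 exceptions: control with CLP plus stimulation in macrophage-like cells, control with sham in endothelial-like cells and control with CLP in fibroblast-like cells.

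**Figure D1:**
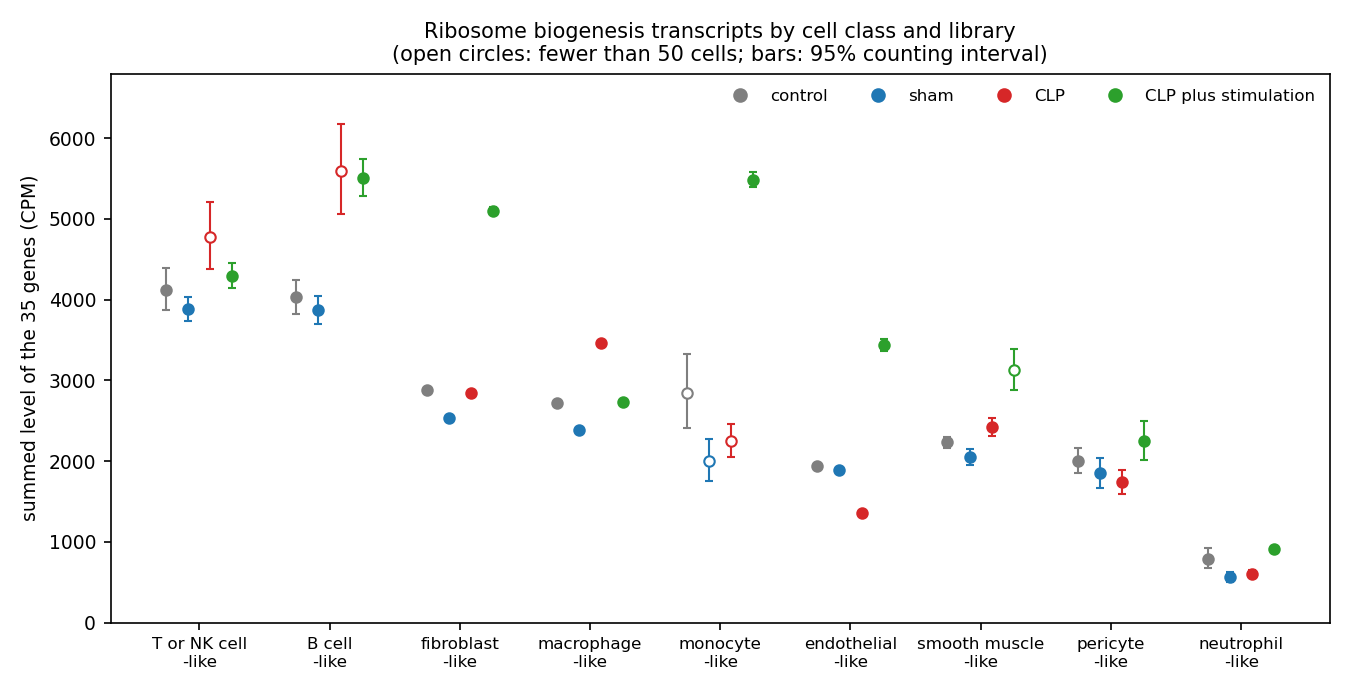
Summed level of the 35 ribosome biogenesis genes in CPM of the class total (vertical axis) in 9 cell classes and 4 libraries (colours), with exact 95% counting intervals as bars and open circles for fewer than 50 cells. Endothelial-like and fibroblast-like cells sit highest in CLP plus stimulation, at 3436 and 5099 CPM, and macrophage-like cells sit highest in CLP, at 3462 CPM. Cardiomyocyte-like, glial-like and dendritic cell-like cells are not drawn.

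Npm1 and Ncl made up 43.3% to 58.3% of the members' UMIs in these 3 classes, and 3' counts are not divided by transcript length. Without them the other 33 genes summed to 1134, 1100, 1877 and 1341 CPM in macrophage-like cells. They summed to 1013, 989, 628.5 and 1949 CPM in endothelial-like cells and to 1555, 1394, 1547 and 2637 CPM in fibroblast-like cells. In all 3 classes the highest and the lowest library were the same with and without the pair.

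The first comparison sets the septic heart, CLP, against sham. In macrophage-like cells all 35 genes were higher in CLP, where 35.9% of all genes were, with a median log2 ratio of 0.94 against -0.24 over 12755 genes. A ratio of at least 2-fold higher was reached by 16 of the 35, where 5.18% of all genes reached it. In endothelial-like cells all 35 were lower, where 64.6% of all genes were, with a median of -0.59 against -0.15 over 12555 genes, and 9 were at least 2-fold lower, where 7.46% of all genes were. In fibroblast-like cells 29 were higher, where 41.7% of all genes were, with a median of 0.27 against -0.09 over 13450 genes, and none was at least 2-fold higher, where 3.8% of all genes were. With TMM scaling, which sets the bulk of genes level between libraries, the median over all genes in macrophage-like cells went from -0.24 to -0.02, and 23 members were at least 2-fold higher. Over all genes the 2-fold calls in these cells went from 661 higher and 2281 lower to 1036 and 1651. The same scaling left 3 members at least 2-fold lower in endothelial-like cells, with 34 of 35 lower, and there the calls over all genes went from 527 higher and 937 lower to 700 and 677. With 5 CPM added, which draws low genes toward 0, 7 members were at least 2-fold higher in macrophage-like cells. In endothelial-like cells 3 were then at least 2-fold lower.

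The second comparison, CLP plus stimulation over CLP, asks how the septic heart with stimulation differed from the septic heart without it. It shares the CLP library with the first. In endothelial-like cells all 35 genes were higher with stimulation, where 43.4% of all genes were, with a median log2 ratio of 1.67 against -0.14 over 11779 genes. At least 2-fold higher were 30 of the 35, where 8.72% of all genes were. In fibroblast-like cells 34 were higher, where 37.6% of all genes were, with a median of 0.77 against -0.21 over 13075 genes, and 10 were at least 2-fold higher, where 4.92% of all genes were. In macrophage-like cells 32 were lower, where 47.6% of all genes were, with a median of -0.46 against 0.04 over 12410 genes, and 5 were at least 2-fold lower, where 8.84% of all genes were. With TMM scaling 17 members were at least 2-fold higher in fibroblast-like cells, and the calls over all genes went from 643 higher and 2193 lower to 954 and 1631. The count of 5 in macrophage-like cells became 1 with 5 CPM added and 3 with doublets kept. Without cells with a UMI of Timd4, Lyve1 or Folr2, a setting chosen after seeing the data, it became 2.

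**Figure D2:**
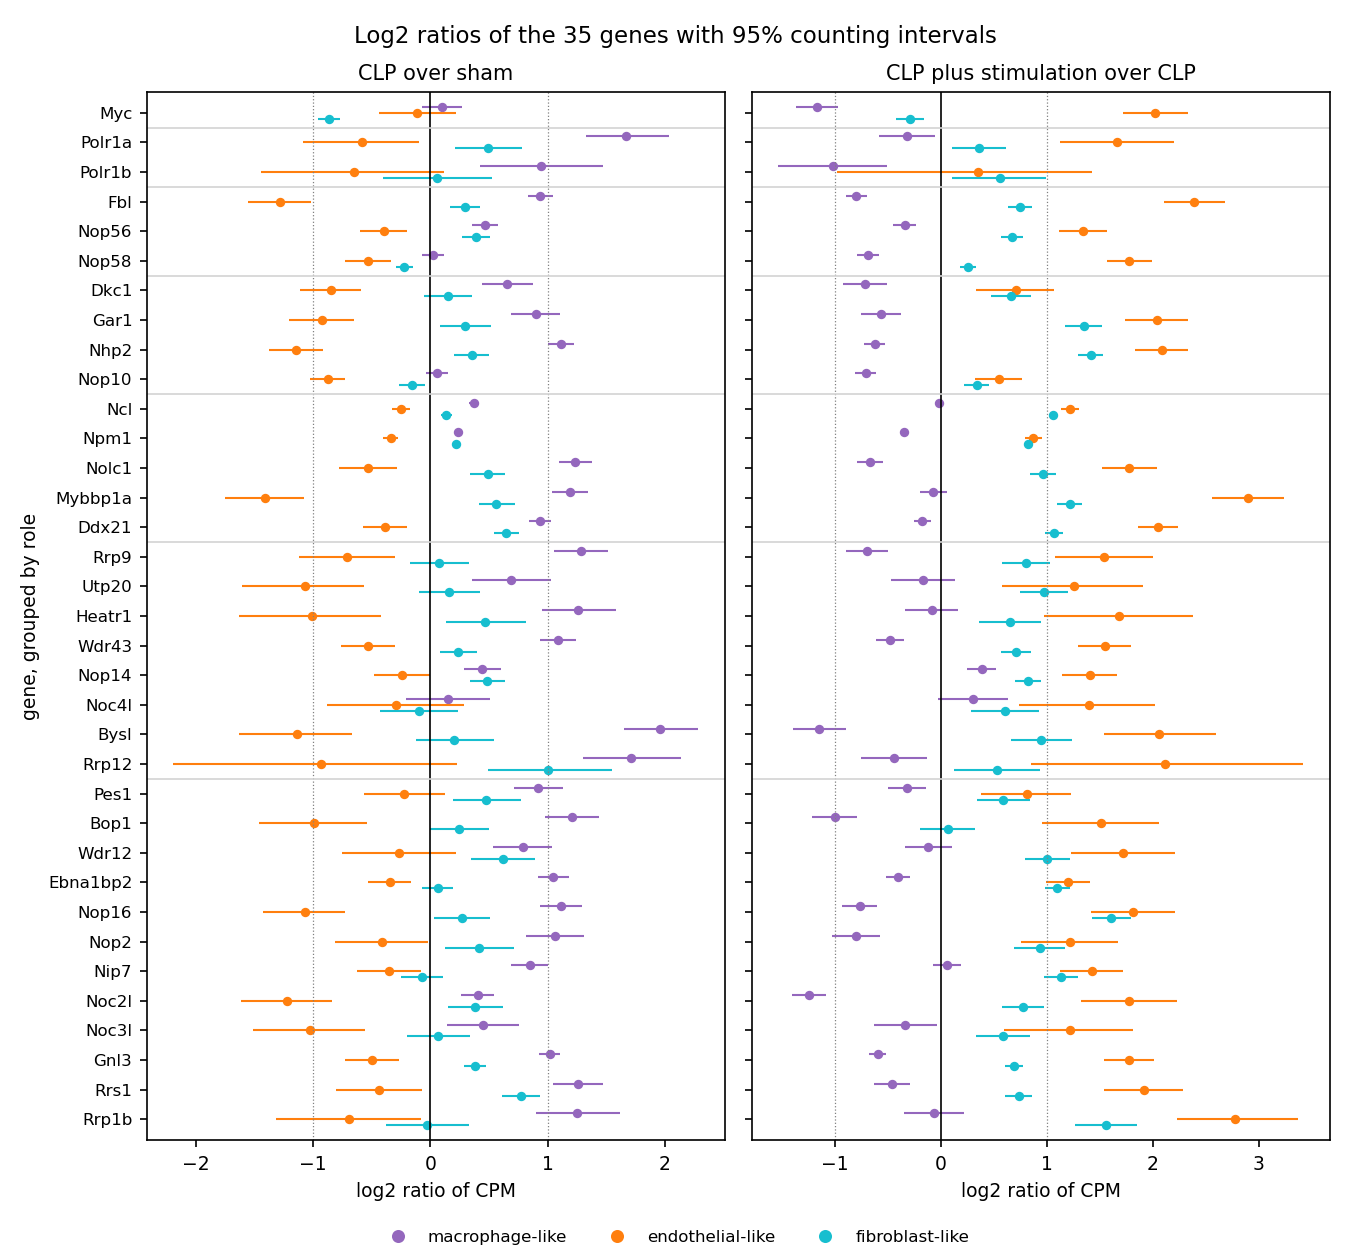
Log2 ratio of CPM (horizontal axis) of each of the 35 genes, grouped by role, in CLP over sham and in CLP plus stimulation over CLP, in macrophage-, endothelial- and fibroblast-like cells. Bars are exact 95% counting intervals and dotted lines mark 2-fold. All 35 macrophage-like points lie above 0 and all 35 endothelial-like points below 0 in CLP over sham, and all 35 endothelial-like points lie above 0 in CLP plus stimulation over CLP.

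Other features of the cells moved along with these differences, and their part in the results was not tested. Markers of neutrophils were all detected in macrophage-like cells, summed to 124, 207, 1740 and 1265 CPM, and a median of 2 of the 8 was detected per cell in both CLP libraries. In endothelial-like cells neutrophil markers summed to 41.1, 124, 476 and 695 CPM, with Cxcr2 at 0 in control and in CLP, and cardiomyocyte markers to 1159, 1097, 937 and 443 CPM. In fibroblast-like cells neutrophil markers summed to 23.0, 61.9, 328 and 433 CPM, with Cxcr2 at 0 in control. The acute phase genes Saa3 and Lcn2, which are no members, together reached 60226 and 58416 CPM in macrophage-like cells of CLP and CLP plus stimulation, against 5.16 in sham. In endothelial-like cells they reached 2005 and 11153 CPM and in fibroblast-like cells 7193 and 10600.1 CPM in those libraries.

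The makeup and the quality of the classes also differed, and their part was not tested except as follows. Cells with a UMI of Timd4, Lyve1 or Folr2, genes of resident macrophages, made up 65.5%, 68.1%, 47.8% and 42.9% of macrophage-like cells, while the median depth was 3392.5, 5785, 7119 and 7272 UMIs. Cells with a UMI of Pi16 or Dpp4 made up 69.7%, 76.7%, 77.4% and 56.8% of fibroblast-like cells at a median depth of 4480.5, 7713, 8792 and 8369 UMIs. Cells with a UMI of Npr3, Cytl1, Prox1, Mmrn1 or Ackr1 made up 10.3%, 9.79%, 9.26% and 5.19% of endothelial-like cells. Their class had a median depth of 2250.5, 3435.5, 3717 and 4169 UMIs. These shares were not thinned. Without those cells, a setting chosen after seeing the data, the median log2 ratio of the members in macrophage-like cells was 0.91 in CLP over sham and -0.45 in CLP plus stimulation over CLP, and in fibroblast-like cells it was 0.24 and 0.95. In endothelial-like cells it was -0.50 and 1.76. Endothelial-like cells made up 21.6%, 18.0%, 23.3% and 5.76% of the kept cells of the 4 libraries. The median mitochondrial share of UMIs was 2.85%, 4.03%, 4.596% and 2.24% in macrophage-like, 2.44%, 3.20%, 3.29% and 2.28% in endothelial-like and 2.01%, 2.74%, 2.86% and 1.71% in fibroblast-like cells.

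The 20 cell cycle genes went the other way from the members in macrophage-like cells. They summed to 427, 474, 262 and 412 CPM in macrophage-like cells. All 20 were lower there in CLP than in sham, where 64.1% of all genes were, with a median log2 ratio of -1.08. Endothelial-like cells held 238, 241, 210 and 297 CPM of them and fibroblast-like cells 211, 199.7, 203 and 234 CPM, in both with the same highest and lowest library as the members. In fibroblast-like cells their summed level was thus slightly higher in CLP than in sham while their median log2 ratio was -0.66, so that sum and median differ in sign. Without cells that had 2 or more cell cycle genes detected, the summed member level was 2254 CPM in sham and 3340 in CLP in macrophage-like cells. In endothelial-like cells it was then 1278 CPM in CLP and 3265 in CLP plus stimulation, and in fibroblast-like cells 2710 and 5007 CPM.

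Myc, the transcription factor of the list, did not go with the other members in every class. In macrophage-like cells it stood at 23.8, 35.8, 38.4 and 17.1 CPM in the 4 libraries. Its log2 ratio was 0.10 (-0.07 to 0.27) in CLP over sham, the third lowest of the 35, and -1.17 (-1.37 to -0.97) in CLP plus stimulation over CLP. The stimulated library was the lowest of the 4, below control. In endothelial-like cells Myc stood at 11.3, 19.1, 17.6 and 71.8 CPM, a log2 ratio of -0.11 (-0.44 to 0.22) in CLP over sham and 2.02 (1.72 to 2.33) in CLP plus stimulation over CLP. Here the stimulated library stood far above the other 3. In fibroblast-like cells Myc stood at 105, 155, 85.1 and 69.4 CPM, and its log2 ratio was -0.86 (-0.96 to -0.77) and then -0.29 (-0.43 to -0.16). It was the member with the lowest ratio in fibroblast-like cells in both comparisons, and the only one that was lower in CLP plus stimulation than in CLP there.

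In the smaller classes Myc rested on few counts. Neutrophil-like cells held 3.7 to 6.9 CPM in the 4 libraries, from 1 to 17 counts. Monocyte-like cells held 0 counts in control, which allows a level of up to 67.8 CPM (exact upper bound), and 1, 8 and 41 counts in sham, CLP and stimulated CLP, the last at 18.1 CPM. T or NK cell-like cells ranged from 24.4 CPM in control to 151 CPM in CLP, the latter from 17 counts in 17 cells. B cell-like cells ranged from 72.1 CPM in control to 122 CPM in sham, and their intervals in CLP (31.2 to 185 CPM) and CLP plus stimulation (50.7 to 107 CPM) held most of that range. Pericyte-like cells ranged from 15.6 to 48.3 CPM and smooth muscle-like cells from 29.1 to 61.8 CPM. Cardiomyocyte-like cells ranged from 4.6 to 21.9 CPM and glial-like cells from 29.5 to 307 CPM, the latter from 6 counts in 5 cells, and the 4 dendritic cell-like cells held no count of it.

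**Figure D3:**
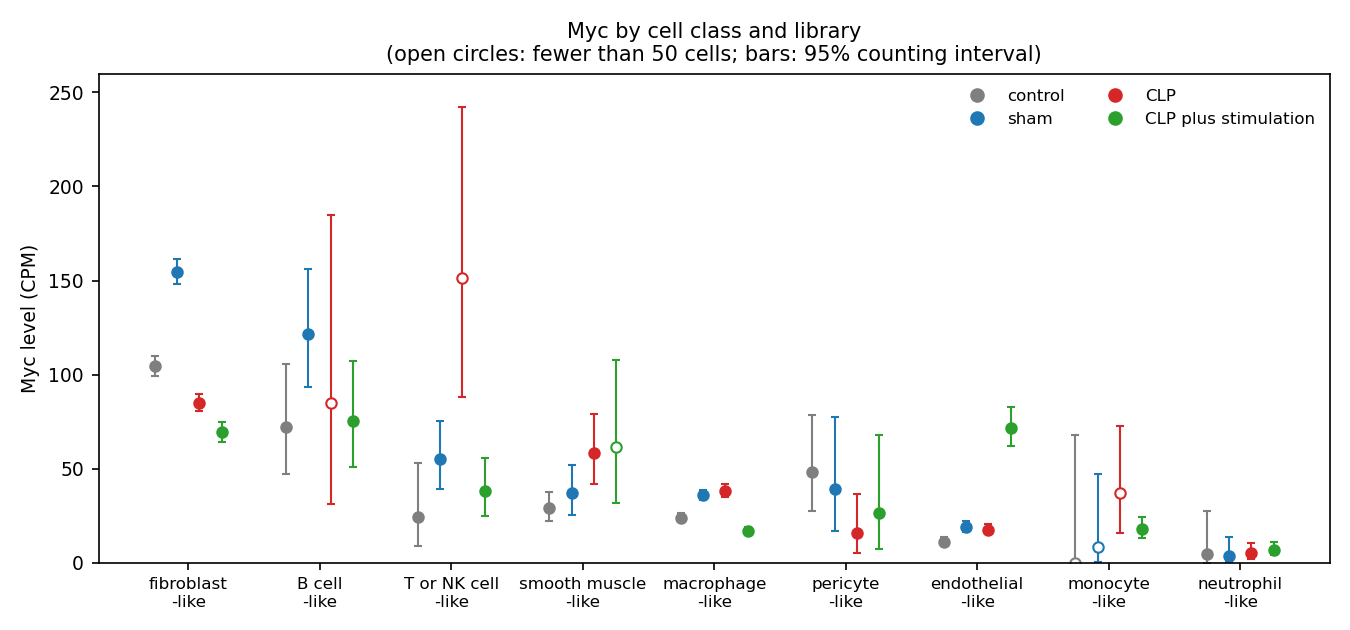
Myc level in CPM (vertical axis) by cell class and library, with exact 95% counting intervals as bars and open circles for classes with fewer than 50 cells. Fibroblast-like cells go from 155 CPM in sham to 69.4 in CLP plus stimulation, while endothelial-like cells reach 71.8 CPM in CLP plus stimulation from 11.3 to 19.1 in the other libraries.

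Polr1a and Polr1b encode the catalytic core subunits of RNA polymerase I. In macrophage-like cells Polr1a stood at 5.16, 5.16, 16.5 and 13.2 CPM, a log2 ratio of 1.67 (1.32 to 2.03) in CLP over sham. Both CLP libraries were high and the stimulated one stayed at a log2 ratio of 1.35 (1.02 to 1.70) over sham. In endothelial-like cells Polr1a stood at 8.25, 10.2, 6.78 and 21.5 CPM, highest with stimulation. In fibroblast-like cells it stood at 9.41, 12.4, 17.4 and 22.3 CPM, higher in both CLP libraries than in the others. Polr1b was rarer, with 9 to 38 counts in endothelial-like cells at 4.24, 4.44, 2.82 and 3.45 CPM. Its log2 ratio there in CLP plus stimulation over CLP, 0.34 (-0.98 to 1.42), was the lowest of the 35 and within counting error of 0. In macrophage-like cells Polr1b stood at 2.98, 2.92, 5.62 and 2.78 CPM, high in CLP alone, and in fibroblast-like cells at 3.43, 5.30, 5.51 and 8.08 CPM.

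Box C/D snoRNPs place methyl groups on ribosomal RNA through the methyltransferase Fbl (fibrillarin), with Nop56 and Nop58 as core proteins. In endothelial-like cells Fbl stood at 47.8, 44.6, 18.3 and 95.9 CPM, a log2 ratio of -1.28 (-1.56 to -1.02) in CLP over sham and 2.39 (2.11 to 2.68) in CLP plus stimulation over CLP. It was lowest in CLP and highest with stimulation. In macrophage-like cells Fbl stood at 68.2, 68.0, 130.1 and 74.7 CPM, so that CLP stood apart from the other 3. In fibroblast-like cells it stood at 78.1, 61.9, 75.9 and 127 CPM, highest with stimulation. Nop58 followed another pattern, with its highest level in control in macrophage-like cells (175, 116, 118 and 72.8 CPM) and in fibroblast-like cells (360.4, 240.3, 206 and 246 CPM). Its log2 ratio in CLP over sham was 0.02 (-0.07 to 0.12) in the first class and -0.22 (-0.29 to -0.15) in the second. In endothelial-like cells Nop58 went with the others, at 90.5, 58.7, 40.6 and 139 CPM. Nop56 had log2 ratios of 0.47, -0.40 and 0.39 in CLP over sham and -0.34, 1.34 and 0.67 in CLP plus stimulation over CLP, in macrophage-, endothelial- and fibroblast-like cells.

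Box H/ACA snoRNPs turn uridine into pseudouridine through Dkc1 (dyskerin), with Gar1, Nhp2 and Nop10 as partners. Nhp2 in fibroblast-like cells stood at 51.9, 45.2, 57.7 and 154 CPM, with a log2 ratio of 1.41 (1.30 to 1.53) in CLP plus stimulation over CLP. The stimulated library stood apart and the other 3 lay close together. Nhp2 in endothelial-like cells stood at 63.9, 57.6, 26.1 and 110.5 CPM, low in CLP and high with stimulation. In macrophage-like cells Nhp2 stood at 56.7, 57.8, 125 and 81.4 CPM, highest in CLP. Nop10 differed from its partners: it stood at 107, 120.3, 125 and 76.7 CPM in macrophage-like cells, a log2 ratio of 0.06 (-0.03 to 0.15) in CLP over sham. In fibroblast-like cells Nop10 stood at 83.7, 88.9, 79.8 and 101 CPM, and in endothelial-like cells at 109.5, 116, 63.5 and 92.5 CPM. Dkc1 in endothelial-like cells stood at 28.0, 38.6, 21.4 and 34.9 CPM, where its log2 ratio of 0.71 (0.33 to 1.07) in CLP plus stimulation over CLP was the third lowest. Dkc1 stood at 15.1, 18.4, 29.0 and 17.6 CPM in macrophage-like cells, highest in CLP, and at 21.4, 25.6, 28.3 and 44.8 CPM in fibroblast-like cells, highest with stimulation. Gar1 had log2 ratios of 0.90, -0.92 and 0.30 in CLP over sham and -0.56, 2.04 and 1.35 in CLP plus stimulation over CLP, in the 3 classes.

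Among the nucleolar chaperones and helicases are Npm1 (nucleophosmin) and Ncl (nucleolin), both abundant proteins that bind ribosomal RNA and histones. Npm1 stood at 859.9, 732, 863 and 679 CPM in macrophage-like cells, 491, 527, 417 and 763 in endothelial-like cells, and 706, 641, 748 and 1323 in fibroblast-like cells. Ncl stood at 728, 558, 722 and 714 CPM, at 435, 371, 311 and 725 CPM, and at 621, 498, 547 and 1140.0 CPM in the same 3 classes. Their spread over libraries was smaller in macrophage-like cells, where control and CLP were close together, than in the other 2 classes, where the stimulated library was highest. Mybbp1a, a nucleolar partner of Myb that takes part in ribosomal RNA transcription and processing, had the most extreme ratio of all members in endothelial-like cells in both comparisons. It stood at 32.0, 30.6, 11.5 and 85.6 CPM, a log2 ratio of -1.41 (-1.75 to -1.08) in CLP over sham and 2.89 (2.56 to 3.24), or 7.44-fold, in CLP plus stimulation over CLP. CLP was the lowest and the stimulated library the highest. In macrophage-like cells Mybbp1a stood at 34.0, 29.2, 66.6 and 63.4 CPM, about equal in both CLP libraries, and in fibroblast-like cells at 46.8, 40.2, 59.5 and 138 CPM. Ddx21, an RNA helicase of the nucleolus, stood at 83.1, 80.5, 126 and 265 CPM in fibroblast-like cells, a log2 ratio of 0.65 (0.54 to 0.76) in CLP over sham and 1.07 (0.98 to 1.15) in CLP plus stimulation over CLP. CLP lay above control and sham, and the stimulated library lay above CLP. Ddx21 stood at 85.2, 89.5, 171 and 151 CPM in macrophage-like cells and at 67.3, 62.2, 47.6 and 197 CPM in endothelial-like cells. Nolc1, a chaperone of snoRNPs, had log2 ratios of 1.23, -0.53 and 0.49 in CLP over sham and -0.67, 1.78 and 0.96 in CLP plus stimulation over CLP, in the 3 classes.

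The 8 small subunit factors work in the processome that forms on the nascent ribosomal RNA precursor and in the later maturation of the subunit. Bysl (the counterpart of Enp1 in yeast), a factor of late small subunit maturation, had the highest ratio of all members in macrophage-like cells. It stood at 5.63, 6.10, 23.8 and 10.7 CPM, a log2 ratio of 1.96 (1.65 to 2.28), or 3.89-fold, in CLP over sham and -1.15 (-1.40 to -0.90) in CLP plus stimulation over CLP. CLP stood apart, and the stimulated library lay between it and sham. Bysl stood at 12.7, 13.6, 6.16 and 25.7 CPM in endothelial-like cells, lowest in CLP, and at 8.72, 9.67, 11.1 and 21.5 CPM in fibroblast-like cells, highest with stimulation. Rrp12, which acts in maturation and export of subunits in yeast, stood at 2.78, 3.75, 12.3 and 9.07 CPM in macrophage-like cells, a log2 ratio of 1.71 in CLP over sham. In fibroblast-like cells Rrp12 stood at 2.95, 3.30, 6.65 and 9.59 CPM, a log2 ratio of 1.00 (0.49 to 1.55) in CLP over sham that was just short of 2-fold before rounding and the highest there. In endothelial-like cells Rrp12 stood at 3.01, 2.22, 1.15 and 4.99 CPM, from 11 to 27 counts a library. Nop14 and Noc4l form a complex in the processome. Nop14 stood at 47.8, 35.5, 48.3 and 63.1 CPM in macrophage-like cells, a log2 ratio of 0.38 (0.25 to 0.52) in CLP plus stimulation over CLP, where Noc4l stood at 5.89, 7.98, 8.86 and 10.9 CPM and had a ratio of 0.30 (-0.02 to 0.64). Both were highest with stimulation, against the direction of most members in macrophage-like cells. In endothelial-like cells Nop14 stood at 38.0, 37.4, 31.6 and 83.7 CPM and in fibroblast-like cells at 72.4, 43.1, 60.4 and 107 CPM, highest with stimulation in both. Noc4l stood at 7.02, 6.67, 5.43 and 14.2 CPM and at 11.4, 10.6, 9.89 and 15.0 CPM in these 2 classes. The other small subunit members, the U3 snoRNP protein Rrp9 and the processome proteins Utp20, Heatr1 and Wdr43, had log2 ratios of 0.69 to 1.28, -1.07 to -0.53 and 0.08 to 0.47 in the 3 classes in CLP over sham. In CLP plus stimulation over CLP these 4 had ratios of -0.70 to -0.09, 1.26 to 1.68 and 0.65 to 0.97 in the 3 classes.

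The 12 large subunit factors include Pes1, Bop1 and Wdr12, which form the PeBoW complex. Bop1 in fibroblast-like cells stood at 16.3, 16.3, 19.3 and 20.2 CPM, and its log2 ratio of 0.06 (-0.20 to 0.32) in CLP plus stimulation over CLP was the second lowest there. In macrophage-like cells Bop1 stood at 10.9, 13.7, 31.7 and 15.8 CPM, highest in CLP, and in endothelial-like cells at 12.8, 13.7, 6.89 and 19.6 CPM, lowest in CLP. Pes1 in endothelial-like cells stood at 15.3, 17.9, 15.3 and 26.9 CPM, a log2 ratio of -0.22 (-0.57 to 0.12) in CLP over sham, the second highest there. Pes1 stood at 17.01, 18.04, 34.1 and 27.3 CPM in macrophage-like cells and at 12.4, 11.98, 16.7 and 25.1 CPM in fibroblast-like cells. Wdr12 had log2 ratios of 0.79, -0.27 and 0.62 in CLP over sham and -0.12, 1.72 and 1.00 in CLP plus stimulation over CLP, in macrophage-, endothelial- and fibroblast-like cells. The transcripts of Pes1, Bop1 and Wdr12 thus did not share 1 common ratio, and the protein complex was not measured.

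Gnl3 (nucleostemin), a nucleolar GTPase known from stem and cancer cells, stood at 101, 93.2, 189 and 125 CPM in macrophage-like cells, high in CLP. It stood at 42.9, 45.2, 32.0 and 109.8 CPM in endothelial-like cells and at 118, 111, 144 and 233 CPM in fibroblast-like cells, high with stimulation in both. Noc2l, which also inhibits histone acetyltransferases, stood at 43.4, 45.4, 60.1 and 25.4 CPM in macrophage-like cells, and its log2 ratio of -1.24 (-1.40 to -1.08) in CLP plus stimulation over CLP was the lowest of the 35. In endothelial-like cells Noc2l stood at 17.9, 21.4, 9.19 and 31.5 CPM, a log2 ratio of -1.22 (-1.61 to -0.84) in CLP over sham. It thus stood lowest with stimulation in the first class and highest in the second. In fibroblast-like cells it stood at 21.8, 18.7, 24.3 and 41.6 CPM.

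Rrp1b stood at 7.58, 6.93, 4.28 and 29.5 CPM in endothelial-like cells, a log2 ratio of 2.78 (2.22 to 3.37) in CLP plus stimulation over CLP, and at 9.82, 9.21, 9.04 and 26.6 CPM in fibroblast-like cells, a ratio of 1.55 (1.27 to 1.85). In both classes the stimulated library was apart from the other 3. In macrophage-like cells Rrp1b stood at 4.44, 5.58, 13.3 and 12.7 CPM, high in both CLP libraries. Nop16 stood at 17.3, 18.0, 21.8 and 66.3 CPM in fibroblast-like cells, where its log2 ratio of 1.61 (1.42 to 1.79) in CLP plus stimulation over CLP was the highest of all members. Nop16 stood at 16.2, 22.2, 47.9 and 28.2 CPM in macrophage-like cells and at 22.3, 24.6, 11.7 and 41.1 CPM in endothelial-like cells. Rrs1, which helps to build the 5S ribonucleoprotein into the large subunit, stood at 39.9, 34.7, 59.3 and 98.6 CPM in fibroblast-like cells, a log2 ratio of 0.77 (0.61 to 0.94) in CLP over sham. It stood at 15.6, 16.01, 38.3 and 27.8 CPM in macrophage-like cells, highest in CLP, and at 17.8, 17.3, 12.7 and 48.0 CPM in endothelial-like cells, highest with stimulation. Nip7 stood at 29.1, 31.0, 55.8 and 58.1 CPM in macrophage-like cells with a log2 ratio of 0.06 (-0.07 to 0.19) in CLP plus stimulation over CLP, within counting error of 0. Nip7 stood at 27.1, 29.4, 23.1 and 61.8 CPM in endothelial-like cells and at 33.4, 35.6, 33.9 and 74.3 CPM in fibroblast-like cells, highest with stimulation in both. The remaining 3, the rRNA methyltransferase Nop2 and the assembly factors Ebna1bp2 and Noc3l, had ratios of 0.45 to 1.06, -1.02 to -0.35 and 0.06 to 0.41 in CLP over sham in the 3 classes. In CLP plus stimulation over CLP these 3 had ratios of -0.80 to -0.34, 1.20 to 1.22 and 0.59 to 1.10.

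Against sham, the stimulated library was higher in all 3 classes for 28 of the 35 members, where 20.3% of 10732 genes measured in all 3 were. In fibroblast-like cells 34 were higher, where 36.9% of all genes were, with a median log2 ratio of 1.12 against -0.28 over 12980 genes, and 24 were at least 2-fold higher, where 7.37% of all genes were. In endothelial-like cells 32 were higher, where 36.7% of all genes were, with a median of 0.97 against -0.28 over 11754 genes, and 17 were at least 2-fold higher, where 7.38% of all genes were. In macrophage-like cells 28 were higher, where 40.3% of all genes were, with a median of 0.49 against -0.20 over 13079 genes, and 5 were at least 2-fold higher, where 8.04% of all genes were. Mybbp1a, Rrp12 and Rrp1b were at least 2-fold higher in all 3 classes, where 1.71% of those genes were. Rrp12 rested on few counts in endothelial-like cells. With 5 CPM added, 1 member stayed at least 2-fold higher in macrophage-like cells, so at most 1 of these names can hold in all 3 classes there. With TMM scaling 9, 25 and 28 members were at least 2-fold higher in macrophage-, endothelial- and fibroblast-like cells. The 2-fold calls over all genes then went from 1052 higher and 2866 lower to 1438 and 2279, from 868 and 2799 to 1372 and 2027, and from 956 and 3237 to 1522 and 2404 in these classes. The count of 5 in macrophage-like cells became 1 with 5 CPM added and 3 with cells thinned to 1500 UMIs. This comparison shares the sham library with the first and the stimulated library with the second.

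Between sham and control no member differed by 2-fold in the 3 classes. The median log2 ratio of the 35 genes in sham over control was 0.07, -0.02 and -0.09 in macrophage-, endothelial- and fibroblast-like cells, against 0.02, 0.06 and 0.04 over all genes. The share of all genes that did was small as well: 1.53%, 1.58% and 0.926% were at least 2-fold higher and 1.74%, 0.846% and 1.18% at least 2-fold lower. The summed level was lower in sham in all 3 classes, with a log2 ratio of -0.19, -0.04 and -0.19, so that in macrophage-like cells sum and median differ in sign. In fibroblast-like cells the step in the sum from control to sham, 2881 to 2533 CPM, was about as large as that from sham to CLP, 2533 to 2843 CPM. Fbl, Nop56, Nop58, Ncl, Nolc1, Mybbp1a and Nop14 were lower in sham than in control in all 3 classes, where 15.7% of 11188 genes measured in all 3 were. Myc, Dkc1, Nop10, Heatr1, Bysl, Bop1, Nop16 and Nip7, 8 members, were higher in all 3, where 27.9% of those genes were. Both counts lie near the share over all genes, so these names are not read as a trait of the members. In single classes 13, 19 and 21 of the 35 were lower, where 46.7%, 40.6% and 43.1% of all genes were. Nop58 had log2 ratios of -0.60, -0.62 and -0.58 in macrophage-, endothelial- and fibroblast-like cells, and Nop14 had the lowest of all members in fibroblast-like cells, -0.75.

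To see whether few or many cells carried the differences, each cell was thinned to 1500 UMIs. Cells with fewer were left out, which took 866, 330, 80 and 341 macrophage-like, 831, 202, 211 and 57 endothelial-like and 321, 52, 40 and 80 fibroblast-like cells from the 4 libraries. Macrophage-like cells then held a mean of 4.02, 3.53, 5.004 and 4.02 member UMIs, with medians of 4, 3, 5 and 4. Endothelial-like cells held means of 2.81, 2.60, 1.90 and 5.01, and fibroblast-like cells 4.30, 3.69, 4.10 and 7.29. The middle of the distribution moved with the mean: the lower quartile of fibroblast-like cells in CLP plus stimulation was 5, equal to the upper quartile in sham. The share of endothelial-like cells with no member UMI was 8.31%, 8.53%, 17.6% and 1.73%. In cells with no cell cycle gene detected the means were 3.94, 3.37, 4.89 and 3.90 (macrophage-like), 2.71, 2.56, 1.87 and 4.98 (endothelial-like), and 4.27, 3.66, 4.04 and 7.37 (fibroblast-like).

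**Figure D4:**
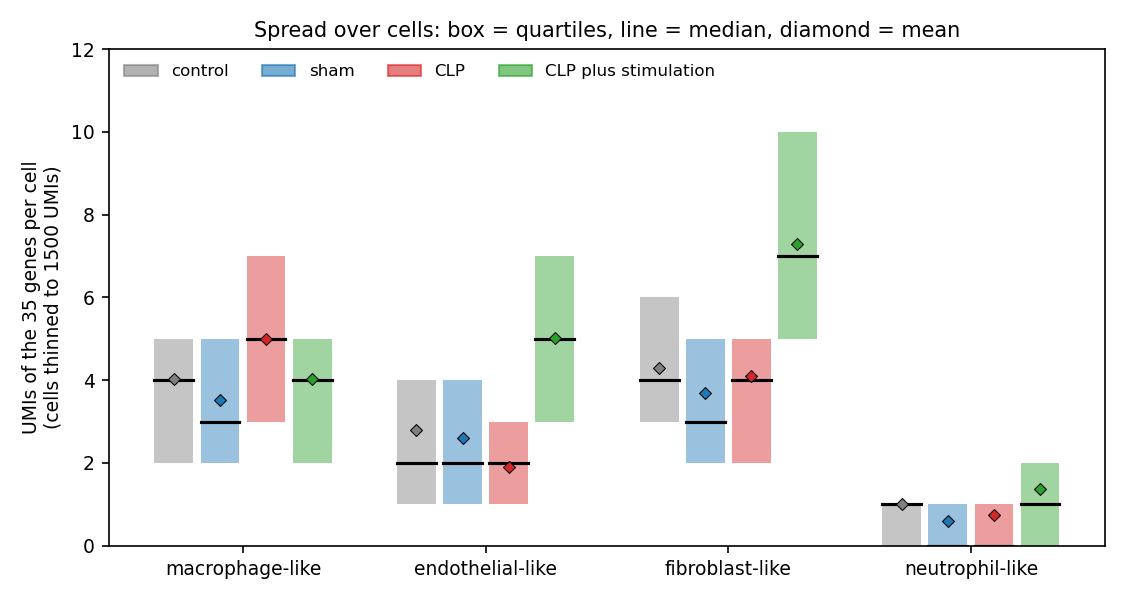
UMIs of the 35 genes per cell (vertical axis) after thinning each cell to 1500 UMIs, in 4 classes and 4 libraries. Boxes span the quartiles, lines mark medians and diamonds means. The fibroblast-like box of CLP plus stimulation starts at 5, where the sham box ends, and the endothelial-like mean is 5.01 with stimulation against 1.90 in CLP.

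Neutrophil-like cells had the lowest summed level of the classes in every library, 793, 562, 609 and 915 CPM, in 136, 195, 218 and 393 cells. With cells that hold so few member UMIs, 12 of the 35 genes had at least 20 counts over both libraries in CLP over sham, with a median log2 ratio of 0.20 against -0.19 over all genes. In CLP plus stimulation over CLP 25 did, with a median of 0.44 against 0.37, and 20 of them were higher, where 71.6% of all genes were. With TMM scaling 13 of those 25 were higher and 12 lower, so no direction is given. The 2-fold calls over all genes went from 1266 higher and 275 lower to 571 and 657 with it. Macrophage and monocyte markers summed to 310 and 2521 CPM in neutrophil-like cells of CLP and to 246 and 2546 CPM with stimulation.

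Other classes were small in at least 1 library. Monocyte-like cells numbered 15, 16, 19 and 103 and held 2847, 2005, 2247 and 5488 CPM of the 35 genes. In the stimulated library 78.6% of them had 2 or more cell cycle genes detected, their median depth was 17748 UMIs, and 62.1% lay at the edge of the gate. Their part in the level was not tested, and after thinning those without a cell cycle gene held a mean of 5.67 member UMIs against 9.26 in those with 2 or more. T or NK cell-like cells held 3880 to 4781 CPM and B cell-like cells 3869 to 5595 CPM, both with the highest value in CLP, from 17 and 23 cells. The CLP interval overlapped the stimulated one in both, at 4386 to 5204 with 4141 to 4453 CPM in T or NK cell-like cells. In B cell-like cells it was 5057 to 6175 with 5279 to 5742 CPM. Pericyte-like cells held 1737 to 2250.3 CPM and smooth muscle-like cells 2049 to 3129 CPM, the latter value from 28 cells. They were lowest in CLP and sham, respectively, and highest with stimulation in both. In pericyte-like cells the stimulated interval (2017 to 2503 CPM) overlapped those of control and sham. Cardiomyocyte-like cells, 305, 264, 315 and 81 in number, held 1381, 1577, 1826 and 1674 CPM, highest in CLP. The stimulated interval (1419 to 1961 CPM) held the CLP value. All 6 members measured there were lower in CLP plus stimulation than in CLP, where 44.7% of all genes were.

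Other genes of the pathway, in 5 lists of 119 genes in all, were set beside the 35. In CLP over sham in macrophage-like cells 102 of the 119 were higher, where 35.9% of all genes were, with a median log2 ratio of 0.43. In endothelial-like cells 107 were lower, where 64.6% of all genes were, with a median of -0.38. In fibroblast-like cells 91 were higher, where 41.7% of all genes were, with a median of 0.18. In CLP plus stimulation over CLP 107 were higher in endothelial-like cells, where 43.4% of all genes were, with a median of 0.80. In fibroblast-like cells 104 were, where 37.6% of all genes were, with a median of 0.56. In macrophage-like cells 71 were lower, where 47.6% of all genes were, with a median of -0.11. The 119 genes together thus lay on the same side of 0 as the 35 genes, nearer to it. Single lists did not always: in macrophage-like cells with stimulation over CLP the other RNA polymerase I genes had a median of 0.08 and the exosome genes of 0.14.

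The lists differed among themselves in macrophage-like cells in CLP over sham. The 42 other large subunit factors had a median of 0.63, from Mrto4 at 1.56 and Ftsj3 at 1.49 to Nop53 at -0.17 and Nsa2 at -0.44. The 40 other small subunit factors had a median of 0.48, from Tsr1 at 1.63 and Nol10 at 1.41 to Wdr3 at -0.15 and Ddx52 at -0.21. The 11 factors that assemble snoRNPs had a median of 0.36, from Nufip1 at 1.06 and Shq1 at 0.74 to Pih1d1 at -0.43 and Znhit3 at -0.48. The 13 other genes of RNA polymerase I and its factors had a median of 0.16, with Polr1e at 1.35 and Cd3eap at 0.92 against Ttf1 at -0.60 and Taf1b at -0.99. The 13 exosome and exonuclease genes, which trim and degrade ribosomal RNA, had a median of 0.08, from Exosc2 at 0.71 and Exosc1 at 0.63 to Exosc8 at -0.11 and Xrn2 at -0.15. Assembly factors of both subunits were therefore further from 0 than the polymerase and exosome lists.

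Transcripts that encode the finished ribosome's own proteins were counted as well. Of 85 cytosolic ribosomal protein genes, 84, 83 and 84 were measured in macrophage-, endothelial- and fibroblast-like cells in CLP over sham, with medians of 0.14, -0.16 and 0.26. In CLP plus stimulation over CLP their medians were -0.11, 0.08 and 0.17. These lay nearer to 0 than those of the 35 genes in both comparisons, except in fibroblast-like cells in CLP over sham, where the medians of 0.26 and 0.27 were about equal. In macrophage-like cells in CLP over sham they ran from Rpl39l at 1.26 and Rpl36al at 0.83 to Rps27 at -0.58 and Rpl7 at -0.63. Many ribosomal protein genes have near-identical pseudogenes, so single values of theirs are uncertain.

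Of the Myc network, whose Mxd proteins and Mxi1 compete with Myc for the partner Max, 9 of 10 genes were measured in macrophage-like cells in CLP over sham, with a median of -0.67. They ran from Mxd1 at 0.88 and Mlx at 0.12 to Mxd3 at -2.30 (-4.87 to -0.78) and Mycl at -2.40 (-4.01 to -1.27). In endothelial-like cells the measured genes of this list had a median of -0.56 in CLP plus stimulation over CLP, with Mxi1, named after its value was seen, at 56.6 CPM in CLP and 7.67 CPM with stimulation, a log2 ratio of -2.85 (-3.60 to -2.24). Of the cell cycle genes Ube2c at -0.24 and Pcna at -0.55 were the highest and Cenpf at -2.29 and Mki67 at -2.41 the lowest in macrophage-like cells in CLP over sham. The 8 immediate early genes, a mark of stress during dissociation among other things, had a median of -0.65, from Atf3 at 0.30 and Dusp1 at 0.30 to Fosb at -1.26 and Egr1 at -1.91.

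**Figure D5:**
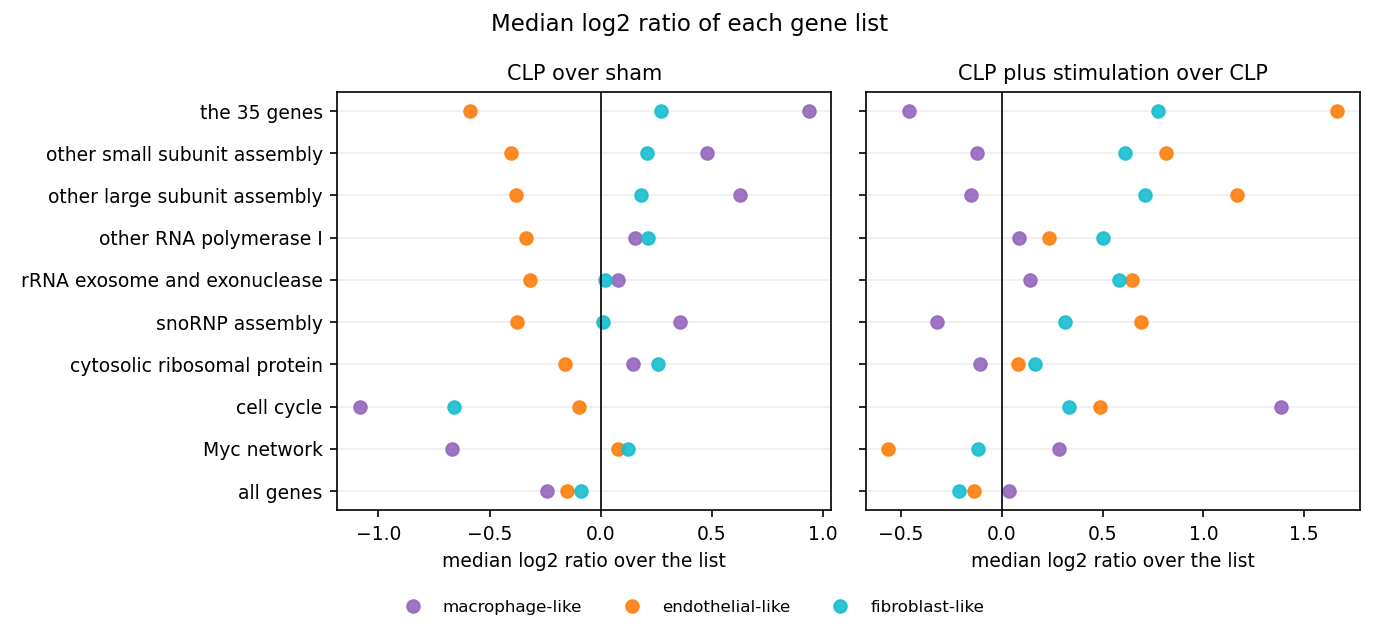
Median log2 ratio (horizontal axis) of the 35 genes, of other gene lists and of all genes measured, in 3 cell classes (colours) and 2 comparisons. The 35 genes lie furthest to the right in endothelial-like cells in CLP plus stimulation over CLP, at 1.67, while cytosolic ribosomal protein genes lie at 0.08.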

How the data were processed

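The values are deposited UMI counts of genes in cell barcodes, not normalized, from Cell Ranger 5.0.0 per the file headers. STAR and mm10 are named in the submitters' processing notes. Gene coordinates came from GENCODE vM21 (GRCm38). The members and all gene lists were chosen with earlier results of these data known.

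Barcodes were kept from 500 UMIs, from 200 genes and up to 20% mitochondrial UMIs. The barcodes with the highest Scrublet scores in each library (scanpy 1.11.5), 0.8% per 1000 barcodes and 6.99% to 12.8% of a library, were left out as doublets. Counts were summed per library and marker-gated class and scaled to CPM of the class total. Log2 ratios used a prior of 0.5 counts, and genes entered medians and counts with at least 20 counts over both libraries. All 35 members passed this in macrophage-, endothelial- and fibroblast-like cells. Levels carry exact Poisson and ratios exact conditional binomial intervals. Calls are ratios past 2-fold. TMM factors came from edgeR 4.0.16 in R 4.3.3. The ratios and medians were tested on simulated counts with known folds and counting error alone. The genes changed there had at least 20 expected counts in the smaller library. Rarer genes and variation between animals lay outside that test.

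Named with values in every library, besides Myc and the leading member of each role by count, are members with the 3 highest and 3 lowest ratios per class in CLP over sham and in CLP plus stimulation over CLP. Of other lists, the 2 highest and 2 lowest genes in macrophage-like cells in CLP over sham are named. Other ratios of members complete the account of each role.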

Additional observations from a re-analysis of the deposited data

How the results depend on the processing

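No median or single ratio changed sign among those past the threshold. Of 260 recomputed medians, counts and summed levels 212 stayed within counting error, the spread over members or 1.5 times the count. Among recomputed ratios of single members 3821 stayed and 455 moved. Thinning to 1500 UMIs moved 162 of them and left 320, and TMM scaling moved 117 and left 365. Leaving out subtype-marked cells moved 109 and left 311. With TMM scaling the medians became 1.16 in macrophage-like cells in CLP over sham, 0.98 in fibroblast-like and 0.034 in neutrophil-like cells in CLP plus stimulation over CLP, and 0.70, 1.24 and 1.42 in macrophage-, endothelial- and fibroblast-like cells in CLP plus stimulation over sham, while the median over all genes in these 3 classes went from between -0.28 and 0.06 to between -0.03 and 0.02 over all comparisons. The counts past 2-fold became 3 lower in endothelial-like cells in CLP over sham, 17 higher in fibroblast-like cells in CLP plus stimulation over CLP, and 9 higher in macrophage-like cells in CLP plus stimulation over sham. With 5 CPM added, which draws low genes toward 0, medians became 1.25 in endothelial-like cells in CLP plus stimulation over CLP and 0.98 in fibroblast-like cells in CLP plus stimulation over sham. The counts then became 7 higher in macrophage-like and 3 lower in endothelial-like cells in CLP over sham, and in macrophage-like cells 1 lower in CLP plus stimulation over CLP and 1 higher in CLP plus stimulation over sham. With cells thinned to 1500 UMIs medians became 1.17 in endothelial-like cells in CLP plus stimulation over sham, 0.93 (5 members) in neutrophil-like cells in CLP plus stimulation over CLP and -1.08 (2 members) in neutrophil-like cells in sham over control, and 3 members were 2-fold higher in macrophage-like cells in CLP plus stimulation over sham. The neutrophil-like median in sham over control, -0.34 over 4 members, became -0.90 with a stricter gate and -0.97 without cells with 2 or more cell cycle genes. Of members at least 2-fold lower in macrophage-like cells in CLP plus stimulation over CLP, 3 were left with doublets kept and 2 without subtype-marked cells, an alternative chosen after seeing the data. 

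Summed levels without cells with 2 or more cell cycle genes were 2605, 2254, 3340.0 and 2588 CPM in the 4 libraries of macrophage-like cells, 1848, 1755, 1278 and 3265 in endothelial-like, 2848, 2446, 2710.0 and 5007 in fibroblast-like, and in sham, CLP and CLP plus stimulation 457, 498 and 726 in neutrophil-like cells. With the stricter gate they were 2642 in macrophage-like cells of CLP plus stimulation, 1849 in endothelial-like cells of sham, and 452, 519 and 658 in neutrophil-like cells of sham, CLP and CLP plus stimulation. With doublets kept they were 1391 in endothelial-like cells of CLP and 1130.0, 663, 683 and 969 in neutrophil-like cells of the 4 libraries. The causes were not tested. No paired analysis was possible because each group is 1 library. With 1 library per group, no setting shows the spread between animals, and ratios of rare members such as Polr1b and Rrp12 in endothelial-like cells rest on 9 to 38 counts a library.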
